A study of Gossypium hirsutum with 6 samples.

Results

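The well-expressed messenger RNAs of the cotton stem apex were compared between a dwarf mutant and its wild type. Members were the assembled transcripts whose mean over the dwarf mutant A1 and the wild type A9 was at least 10 RPKM (reads scaled by transcript length and by the number of mapped reads). This selected 15139 of 156846 listed transcripts, or 9.65%, and together they held 61.6% of the summed RPKM in A1 and 61.8% in A9. They fell into 9763 of 70875 components, a component being the set of transcripts whose names in the assembly differ only in the final sequence number. The study asked which genes and miRNAs differ between upland cotton (Gossypium hirsutum) lines of different plant height. A1 is the dwarf mutant Ari1327, A3 the tall-culm mutant Ari3697 and A9 the wild type Ari971. Both mutants were obtained by gamma irradiation of Ari971, so a mutant line can differ from its parent at other loci than the one behind its height. No treatment was applied, and stem apexes of greenhouse seedlings were taken when the fifth true leaf had formed. The labels speak of pooling equal amounts of RNA of the lines, but their genotype entry gives each library to a single line, and each library was used as that of its line.

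There was 1 mRNA library per line, so a difference between A1 and A9 has no replicate check, no test was run, and the differences below are those between 2 libraries. The files pair no transcript with a gene name. Stem apex marker genes could therefore not be looked up, and functions come from tables added to the study, which annotate transcripts mainly because they are predicted miRNA targets. For 259 transcripts with a listed length, RPKM times length lay mostly on whole multiples of a constant per library. It was 72.1 in A1 and 66.4 in A9, where 87.2% of 78 and 89.0% of 73 low values were whole within 0.1 of a multiple. If 1 multiple is 1 read, which the values do not settle, a member of 205 bases at 10 RPKM rested on about 28.4 reads in A1 and 30.9 in A9. In tissue libraries of this kind, fewer cells of a type and less RNA per cell cannot be told apart.

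The stem apex holds the shoot meristem and the young internodes below it. New cells are made there by division, which needs ribosome production and DNA synthesis, and internodes then lengthen by expansion of the cell wall. Auxin, gibberellin, brassinosteroid and abscisic acid are known to set internode length in many plants, and dwarf mutants are often changed in the making or sensing of one of these hormones.

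Most members had similar levels in both lines. The log2 ratio of A1 over A9, computed with 0.1 added to each value, had a median of -0.02 over the members, with quartiles at -0.26 and 0.27 and the 5th and 95th percentiles at -0.70 and 0.90. Of the members, 82.3% differed by less than 1.5-fold. A difference of at least 2-fold was found for 640 members that were higher in A1 (4.23%) and for 212 that were lower (1.40%). Among all listed transcripts the same shares were 9.87% higher and 9.06% lower, so both were smaller among the well-expressed transcripts, and the lower share more so. The 640 members higher in A1 had a median of 31.1 RPKM in A1 against 8.32 RPKM in A9. For the 212 members lower in A1, the medians were 11.8 RPKM in A1 against 28.6 RPKM in A9.

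The members higher in A1 also differed by more. Their median log2 ratio was 1.64, and 250 of the 640 were at least 4-fold higher. The 212 lower members had a median of -1.17, and 13 of them were at least 4-fold lower. Among all 156846 listed transcripts, 6951 were at least 4-fold higher in A1 and 6319 at least 4-fold lower. Because a mean of 10 RPKM can be reached through 1 library alone, 375 of the 640 were under 10 RPKM in A9 and 88 of the 212 were under 10 RPKM in A1. With at least 10 RPKM required in each library, 265 transcripts were higher and 124 lower among 13012. The member nearest to the minimum had 8.99 RPKM in A1 against 11.01 RPKM in A9, a mean of 10 RPKM, and the nearest transcript left out had 10.24 and 9.75 RPKM.

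**Figure D1:**
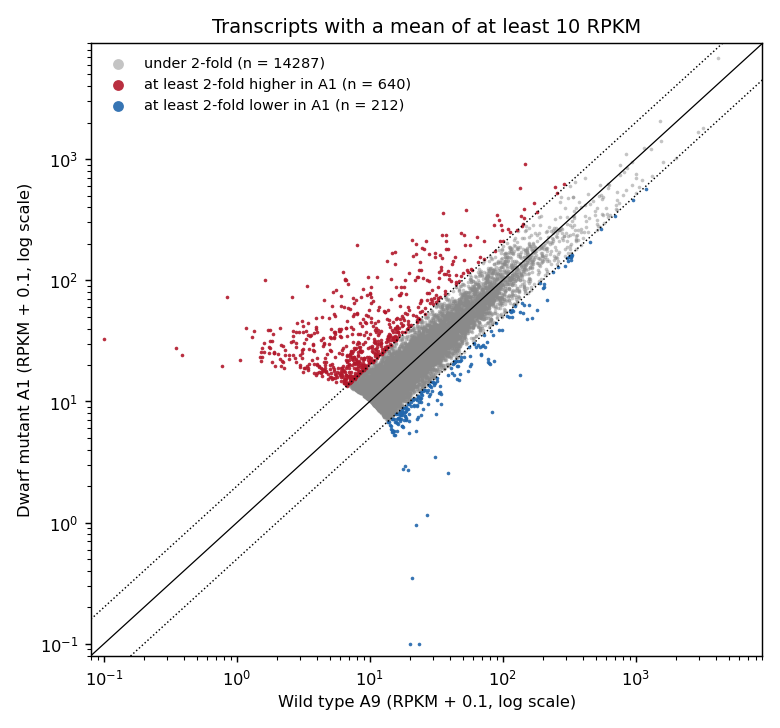
Each point is 1 of the 15139 members, with the wild type A9 on the horizontal and the dwarf mutant A1 on the vertical log axis (RPKM with 0.1 added). The solid line marks equal values and the dotted lines a 2-fold difference. The 640 members at least 2-fold higher in A1 reach farther from the line of equal values than the 212 that are at least 2-fold lower.

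The members at the ends of the range carry no function in the sources used here. The highest ratio was that of comp21026_c0_seq2, at 32.6 RPKM in A1, listed at 0 in A9, and at 1.05 RPKM in A3. It was followed by comp29744_c0_seq1, the only transcript of its component, at 73.0 RPKM in A1, 0.75 RPKM in A9 and 13.6 RPKM in A3, a log2 ratio of 6.43. The lowest were comp9303_c0_seq1, listed at 0 in A1 against 23.5 RPKM in A9 and 0.05 RPKM in A3, and comp26016_c0_seq3, listed at 0 in A1 against 20.1 RPKM in A9 and 12.0 RPKM in A3. These 3 were the only members listed at 0 in A1 or A9, and no fold is given for them. For comp26016_c0_seq3, the other transcripts of the component kept its summed RPKM in A1 above 0, at 2.49 RPKM against 39.0 RPKM in A9. For comp21026_c0_seq2 the sum was 41.3 RPKM in A1 against 6.33 RPKM in A9, a log2 ratio of 2.69, so less of the difference remained at the level of the component.

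The share of changed members differed between expression levels. From 10 to 20 RPKM, 3.72% of 8704 members were at least 2-fold higher in A1 and 1.21% lower. The share higher was 4.45% of 4536 members from 20 to 50 RPKM, 5.58% of 1237 from 50 to 100 RPKM and 7.12% of 618 from 100 to 500 RPKM. Over the same bins the share lower was 1.23%, 1.70% and 4.37%. Thus the changed share was more than 2-fold larger at 100 to 500 RPKM (11.5%) than at 10 to 20 RPKM (4.93%), and higher members outnumbered lower ones in each of these 4 bins. The median ratio stayed between -0.06 and -0.01 in them. Transcripts of a component can share reads, so members counted in these shares are not independent. Of the 27 lower members at 100 to 500 RPKM, 6 came from 1 component and 4 from another.

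The most abundant members were mostly lower in A1 when binned by the mean. At 500 RPKM or more there were 44 members, with A1 values from 338 to 6760 RPKM (median 636) and A9 values from 146 to 4186 RPKM (median 832). Of these, 34 were lower in A1 and 10 higher, and the median log2 ratio was -0.34, which is below that of every other bin. Only 1 was at least 2-fold higher and 3 at least 2-fold lower. Summed, they made up 4.92% of all RPKM in A1, 5.797% in A9 and 5.36% in A3. None of the 44 has a function or a GO term (Gene Ontology term) in the sources used here, since the highest annotated member had a mean under 500 RPKM. When members were binned by the higher of the A1 and A9 values in place of the mean, the share higher in A1 became 1.82% for 10 to 20 RPKM, 11.2% for 100 to 500 RPKM and 7.81% for 500 RPKM or more. With this binning the share lower at 500 RPKM or more was 6.25%, so higher members were then the more frequent there too.

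**Figure D2:**
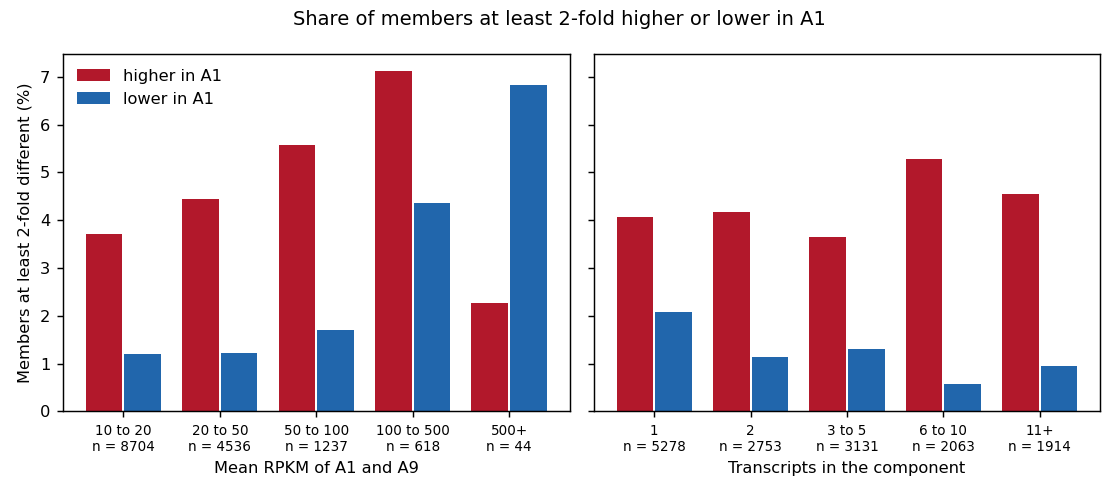
Bars give the percent of members at least 2-fold higher (red) or lower (blue) in A1, by mean RPKM on the left and by the number of listed transcripts in the member's component on the right, with the number of members under each pair of bars. Higher members outnumber lower ones in every bin except 500 RPKM or more, where the shares are 2.27% of 44 members higher and 6.82% lower (7.81% and 6.25% when binned by the higher of the A1 and A9 values).

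The excess of higher members was larger in components of 2 or more transcripts than among single transcripts, but it did not rise steadily with component size. Among the 5278 members that are the only transcript of their component, 4.07% were at least 2-fold higher in A1 and 2.08% lower, or 1.96 higher members for each lower one. In components of 6 to 10 transcripts these shares were 5.28% and 0.582% of 2063 members, or 9.08 higher members for each lower one. This ratio rests on 109 higher and only 12 lower members. In components of 2, of 3 to 5 and of 11 or more transcripts, there were 3.71, 2.78 and 4.83 higher members for each lower one. The share higher lay between 3.64% and 5.28% over these bins and the share lower between 0.582% and 2.08%. When only members were counted for the size of a component, the shares for 11 or more were 8.73% higher and 0% lower. Members of components with 11 or more transcripts had a median log2 ratio of 0.09, the only bin above 0, against -0.05 for single transcripts. Transcripts of a component can share reads, so these members are not independent of each other. In the bin of 11 or more, 1 component gave 11 of the 87 higher members, and another gave 6 of the 18 lower ones.

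Summed over all transcripts of a component, 355 of 9763 components with a member (3.64%) were at least 2-fold higher in A1 and 140 (1.43%) lower, against 15.7% and 16.4% of all 70875 components. The median log2 ratio of the 9763 sums was -0.03. By size, the changed share of the sums was smaller the more transcripts a component held. It was 6.16% of 5278 components with 1 transcript, 4.46% of 1747 with 2, 3.63% of 1432 with 3 to 5, 3.53% of 651 with 6 to 10 and 2.60% of 655 with 11 or more. In the last group, 16 components were higher and 1 was lower. At the upper end of the component sums, comp29744_c0 was followed by another component of 1 transcript, at 27.6 RPKM in A1, 0.25 RPKM in A9 and 0.10 RPKM in A3. The lowest sums were those of comp9303_c0 and comp26016_c0.

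For most changed transcripts in larger components, the component sum also differed at least 2-fold in the same direction. The sum includes the member itself, so part of this agreement is built in. The sum without the member was not computed. Of the 425 higher members in components of 2 or more transcripts, 337 (79.3%) had a component sum that was also at least 2-fold higher, 28 had a sum within 1.5-fold of A9, and for 4 the sum was lower in A1. Of the 102 lower members in such components, 55 (53.9%) had a sum at least 2-fold lower, 13 had a sum within 1.5-fold, and for 2 the sum was higher in A1. Another transcript of the component that differed at least 2-fold in the opposite direction accompanied 15 of the 425 higher and 2 of the 102 lower members, and in none of these cases was it itself a member. A higher member held a median of 25.04% of its component's RPKM in A1 and 23.6% in A9, and a lower member 23.6% in A1 and 26.5% in A9.

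Some components held several changed members. Components of 2 or more transcripts held 9861 of the 15139 members, 425 of the 640 higher members and 102 of the 212 lower ones. There were 112 components with 2 or more higher members, holding 332 of the 640, and 21 components with 2 or more lower members, holding 57 of the 212. In 87 of the 2717 components with 2 or more members, every member was at least 2-fold higher in A1, and in 15 every member was at least 2-fold lower. The component with the most higher members had 11 of them among its 12 transcripts. Each was between 21.5 and 35.7 RPKM in A1, between 1.40 and 1.76 RPKM in A9 and between 8.29 and 10.9 RPKM in A3. The sums of this component were 315 RPKM in A1, 18.2 RPKM in A9 and 109 RPKM in A3. Its transcripts can share reads and are not replicates, and it was picked for its higher members. The component with the most lower members had 6, and its 7 members lay between 155 and 274 RPKM in A1 and between 317 and 536 RPKM in A9. Its summed RPKM was 1262 in A1, 2513 in A9 and 1394 in A3, a log2 ratio of -0.99, so the sum itself was just under the 2-fold difference.

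**Figure D3:**
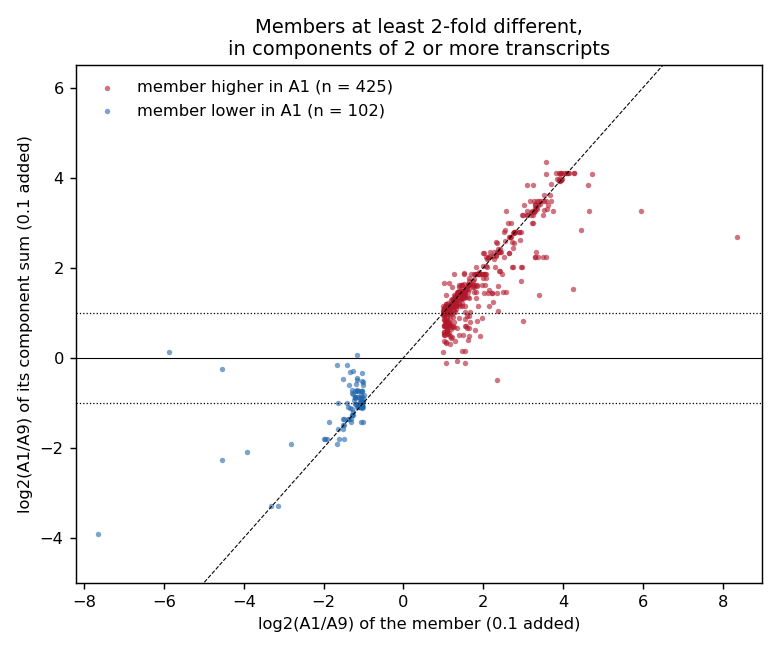
Each point is a member at least 2-fold different between A1 and A9 in a component of 2 or more transcripts, with its own log2 ratio on the horizontal axis and that of the component sum on the vertical axis (0.1 added to each value). The sum includes the member itself. The dashed line marks equal ratios and the dotted lines a 2-fold difference of the sum. Of the 425 higher members 337 lie above the upper dotted line, and of the 102 lower members 55 lie on or below the lower one.

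Of the members, 122 appear in the additional files of the study, and 105 of these have a function name or a GO term. Among these 105, none was at least 2-fold higher in A1 and 2 were at least 2-fold lower, beside 4.23% and 1.40% of all members. At the smaller threshold of 1.5-fold, 5 were higher and 8 lower, while 10.3% of all members were higher and 7.40% lower by this threshold (17.1% and 15.8% of all listed transcripts). Their median log2 ratio was -0.11, compared with -0.02 for all members, and 64 of the 105 were below 0. Of all 15139 members, 7857 were below 0 and 7274 above. The counts above and below 0 in the lists that follow stand beside these shares. The annotated members were sorted into role lists by words in their function and GO terms, and a transcript can stand in more than 1 list. The lists are described by counts and medians, and no list was tested.

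The 2 annotated members that were at least 2-fold lower are a chloroplast protein and a folding enzyme. Photosystem II 22 kDa protein (comp20688_c0_seq1), which is needed to release excess light energy as heat, had 28.1 RPKM in A1, 63.1 RPKM in A9 and 32.9 RPKM in A3, a log2 ratio of -1.17. From the inferred reads, 145 in A1 and 354 in A9, the 95% Clopper-Pearson interval of this ratio was -1.46 to -0.89. Such intervals cover counting error only and say nothing of the variation between plants. Cyclophilin B (comp38135_c0_seq1), a peptidyl-prolyl isomerase that helps proteins to fold, had 13.5 RPKM in A1, 27.6 RPKM in A9 and 13.7 RPKM in A3, a log2 ratio of -1.02. For both, the A3 value was nearer to A1 than to A9. The A1 and A3 values are set against the same A9 library throughout. Each is the only transcript of its component.

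The plastid list was on the lower side. All 9 members had a ratio below 0 (8 of 9 after scaling by the median ratio of the members and for component sums), 4 of them by at least 1.5-fold, and the median was -0.33. Besides photosystem II 22 kDa protein, the lowest named one was glucose-6-phosphate 1-dehydrogenase (comp44817_c1_seq6), which feeds the oxidative pentose phosphate pathway. It had 10.48 RPKM in A1, 17.4 RPKM in A9 and 12.9 RPKM in A3, and its component of 6 transcripts had nearly the same ratio, -0.75 against -0.73. Ribosomal proteins S17 (comp15825_c0_seq1) and L15 (comp35777_c0_seq1), assigned to the chloroplast by their GO terms, had 158 and 123 RPKM in A1 against 199 and 144 RPKM in A9. The log2 ratios were -0.33 and -0.23, with intervals of -0.42 to -0.24 and -0.31 to -0.14, neither of which holds 0. At the other end of the list, hydroxymethylglutaryl-CoA reductase (comp46108_c0_seq2), which makes mevalonate for isoprenoids, and pyruvate kinase (comp42432_c0_seq2), the last enzyme of glycolysis, had ratios of -0.06 and -0.01, and their components -0.18 and 0.04.

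Most members of the redox list shared this direction. Of 12 members in the list of redox and electron carriers, 11 were below 0, 3 of them by at least 1.5-fold, with a median of -0.31. Some members of the plastid list are among them, so these lists overlap. The highest ratio was that of a polypyrimidine tract-binding protein (comp45641_c0_seq3), an RNA-binding protein that a GO term placed in the list, at 24.5 RPKM in A1 against 23.97 RPKM in A9. Members below 0 include chaperones that carry the same redox GO terms, heat shock 70 kDa proteins 4 and 1/8, with log2 ratios of -0.36 and -0.10.

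Members of hormone pathways were mostly lower in A1, with 5 of 6 below 0 (6 of 6 for component sums) and a median of -0.38, although only 1 differed by 1.5-fold. Zeaxanthin epoxidase (comp40321_c0_seq1), a xanthophyll cycle enzyme that supplies a precursor of abscisic acid, had 30.0 RPKM in A1, 48.3 RPKM in A9 and 35.0 RPKM in A3. Its log2 ratio was -0.69, and that of its component -0.81. Transport inhibitor response 1 (comp44609_c0_seq3), the F-box protein that perceives auxin, had 16.7 RPKM in A1, 24.8 RPKM in A9 and 20.6 RPKM in A3. The ratio was -0.57, with an interval of -0.70 to -0.45, and the sum of its 11-transcript component gave -0.41. The transcript comp45893_c0_seq5, which has auxin signalling and inositol hexakisphosphate binding as GO terms, had 19.7 RPKM in A1, 27.8 RPKM in A9 and 23.2 RPKM in A3, a ratio of -0.49. It held 7.39% of its component in A1 and 8.96% in A9, and the component sum gave a ratio of -0.22. In each of these 3 cases A3 lay between A1 and A9. The only member above 0 was an EREBP-like factor (comp37594_c0_seq3), of the ethylene-responsive family of transcription factors, at 30.4 RPKM in A1 against 27.5 RPKM in A9, with a component ratio of -0.01.

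**Figure D4:**
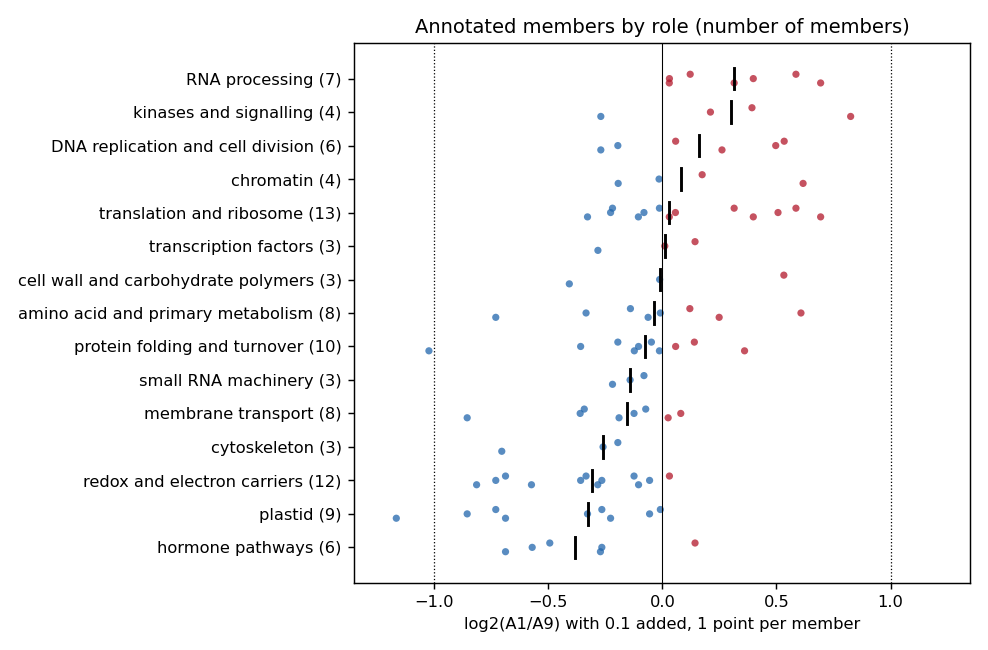
Each point is an annotated member, placed by its log2 ratio of A1 over A9 (0.1 added) in the row of each role list it belongs to, with red above 0 and blue below 0. Black bars are list medians and dotted lines a 2-fold difference. All 7 RNA processing members lie above 0 and all 9 plastid members below 0, of which 1 lies above 0 after scaling by the median ratio of the members.

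RNA processing, kinases and signalling, and DNA replication and cell division had the highest list medians. In RNA processing, all 7 members were above 0, also with each scaling and for component sums, 2 of them by at least 1.5-fold, and the median was 0.31. SNU13 (comp31467_c0_seq1), known from yeast and human cells as a protein that binds U4 RNA of the spliceosome and small nucleolar RNAs, had 43.2 RPKM in A1, 26.7 RPKM in A9 and 35.1 RPKM in A3. The log2 ratio was 0.69, with an interval of 0.50 to 0.90 from 512 and 343 inferred reads. H/ACA ribonucleoprotein subunit 1 (comp36146_c0_seq2), of the complex that guides pseudouridylation of ribosomal RNA, had 20.8 RPKM in A1, 13.9 RPKM in A9 and 20.8 RPKM in A3. Its ratio was 0.59 and that of its component 0.77. The lowest of the list, polyadenylate-binding protein (comp40357_c0_seq3) and the polypyrimidine tract-binding protein, were near 0 at 0.03 each.

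The wider list of translation and ribosome was divided. Of 13 members, 7 were above 0 and 6 below, with a median of 0.03 (8 above and 5 below 0 when scaled by the median ratio of the members), 2 were at least 1.5-fold higher and none at least 1.5-fold lower. Its highest members were SNU13 and H/ACA subunit 1, and its lowest were the chloroplast ribosomal proteins S17 and L15. The members below 0 also include the translation initiation factor 2C transcripts (-0.22 and -0.08) and transcription elongation factor B polypeptide 1 (-0.01). Words in their names or GO terms placed them here, and they are also counted under small RNA machinery or protein turnover.

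Among members for DNA replication and cell division, 4 of 6 were above 0 and the median was 0.16, with none past 1.5-fold. DNA primase large subunit (comp40349_c0_seq3), which helps to start new DNA strands, had 19.7 RPKM in A1, 13.6 RPKM in A9 and 19.5 RPKM in A3, a log2 ratio of 0.53 for the transcript and 0.40 for the component. Replication factor C subunit 2/4 (comp37547_c0_seq1), of the clamp loader at the replication fork, had 35.3 RPKM in A1, 25.01 RPKM in A9 and 31.0 RPKM in A3. Its ratio of 0.50 had an interval of 0.34 to 0.66. The 2 members for transitional endoplasmic reticulum ATPase, a segregase that extracts proteins from complexes, had ratios of -0.20 (comp46596_c0_seq13, with -0.31 for its component) and 0.06 (comp34319_c0_seq1, the only transcript of its component).

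Chromatin members were 2 above and 2 below 0, or 3 above and 1 below 0 after scaling by the median ratio of the members. A euchromatic histone-lysine N-methyltransferase (comp32012_c1_seq1), of the enzymes that methylate histone tails, had 13.0 RPKM in A1, 8.47 RPKM in A9 and 13.1 RPKM in A3. Its log2 ratio was 0.62, but with 54 and 38 inferred reads the interval was 0.00 to 1.26. The difference was thus barely larger than the counting error, even with the inferred reads taken as independent. The lowest member was the SWI/SNF ATPase subunit 2/4 (comp42872_c0_seq1), of a nucleosome remodelling complex, with a ratio of -0.19. Elongator complex protein 3 (comp43308_c0_seq3) had -0.01 and periodic tryptophan protein 1 (comp40469_c0_seq1) 0.17, with component ratios of -0.11 and 0.40.

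Predicted miRNA sites are shown for 5 annotated members, chosen after their values were seen, since the additional files annotate transcripts mainly as predicted miRNA targets. The sites were predicted in the additional files for candidate miRNAs of the study and are given 5′ to 3′. Capitals mark the bases that form neither a Watson-Crick nor a G-U pair with the miRNA. Photosystem II 22 kDa protein has 16 Watson-Crick pairs and 4 G-U pairs over 21 bases with ghr-m1071-3p, and SNU13 has 18 and 1 with ghr-m1632-3p.
photosystem II 22 kDa protein site: guuuuuuguuuUucagauuuu
ghr-m1071-3p: aaaauuugguaaacaaagagc
SNU13 site: gauaGuggcacgAcuuaauca
ghr-m1632-3p: ugauugagccgugccaauauc
The replication factor C and histone methyltransferase transcripts have sites for the same miRNA, each with 17 Watson-Crick pairs, 2 G-U pairs and 2 unpaired bases, of which 1 is at the same place in both sites.
replication factor C site: gaUgucaugcugUcagcuuca
histone methyltransferase site: aaCaucauguuggcagcuuuC
ghr-m6018-5p: ugaagcugccagcaugaucuu
The fifth transcript, comp43497_c0_seq5, has protein kinase activity as a GO term and had the highest ratio of the members with a function or GO term. It had 23.6 RPKM in A1, 13.2 RPKM in A9 and 18.5 RPKM in A3, a log2 ratio of 0.83 with an interval of 0.65 to 1.01.
protein kinase site: aaacuuGggggugcagauug
ghr-m3978-5p: uaaucugcauccugagguuu
Levels of the miRNAs were not analysed here, and a predicted site is a description of the sequence only.

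**Figure D5:**
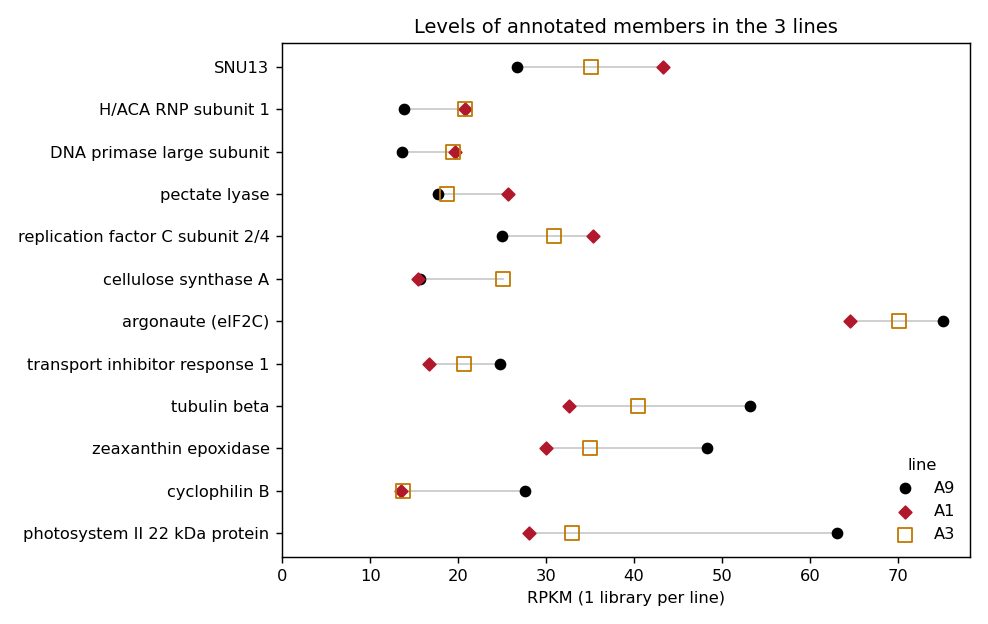
Points are the RPKM of 12 annotated members in the 1 library of the wild type A9 (black circles), the tall-culm mutant A3 (open orange squares) and the dwarf mutant A1 (red diamonds), joined by a grey line from the lowest to the highest value. Photosystem II 22 kDa protein shows the widest distance, from 28.1 RPKM in A1 to 63.1 RPKM in A9, and cellulose synthase A the case where A3 stands apart from both.

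Genes of the cell wall did not share a direction. Of 3 members, 1 was above and 2 below 0, or 2 above and 1 below 0 after scaling by the median ratio of the members, and none passed 1.5-fold. Pectate lyase (comp40743_c0_seq2), which cleaves pectin of the middle lamella and primary wall, had 25.7 RPKM in A1, 17.7 RPKM in A9 and 18.7 RPKM in A3, a log2 ratio of 0.53 for the transcript and 0.63 for its component. Cellulose synthase A (comp43043_c0_seq2), a catalytic subunit of the cellulose-making complex, had 15.5 RPKM in A1, 15.6 RPKM in A9 and 25.1 RPKM in A3. The transcript ratio was -0.01, but it held 50.1% of its component in A1 and 40.5% in A9, and the component of 3 transcripts was lower in A1 with -0.32. A chitinase by its GO terms (comp38613_c0_seq1), also the 1 member of the defence list, had 188 RPKM in A1, 249 RPKM in A9 and 194 RPKM in A3. Its ratio of -0.41 had an interval of -0.47 to -0.35.

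All 3 cytoskeleton members were below 0, also with each scaling and for component sums. Tubulin beta (comp34310_c0_seq2), a subunit of the microtubules that orient cellulose deposition, had 32.6 RPKM in A1, 53.2 RPKM in A9 and 40.5 RPKM in A3. The log2 ratio was -0.70, with an interval of -0.99 to -0.44, and the sum over its 2 transcripts gave -0.43. The transcript held 51.5% of the component in A1 and 62.3% in A9. Dynamin GTPase (comp44681_c1_seq2), which severs membranes, had a ratio of -0.26, equal for transcript and component. The remaining member was the transitional endoplasmic reticulum ATPase comp46596_c0_seq13 (-0.20), which has microtubule-severing ATPase activity as a GO term and is also counted in other lists.

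Members of the small RNA machinery were close to equal in both lines. The 3 ratios lay between -0.22 and -0.08. Translation initiation factor 2C is the name under which argonaute proteins, the carriers of miRNAs, are listed. Of its transcripts, comp46753_c1_seq2 had 64.6 RPKM in A1, 75.2 RPKM in A9 and 70.1 RPKM in A3, with an interval of -0.29 to -0.15, and comp45738_c0_seq1 had 14.0 RPKM in A1 against 14.8 RPKM in A9, with an interval of -0.24 to 0.08 that holds 0.

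Transcription factors had 3 members among the well-expressed transcripts, of 22 in the additional files. Of these, 2 were above 0, but 1 after scaling by the upper quartile and none for component sums. A homeobox-leucine zipper protein (comp45076_c0_seq1) had 11.04 RPKM in A1, 13.5 RPKM in A9 and 13.4 RPKM in A3, a log2 ratio of -0.28 for the transcript and -0.33 for its component. A second homeobox-leucine zipper protein (comp31698_c0_seq1) had 24.5 RPKM in A1 against 24.3 RPKM in A9, and the EREBP-like factor above was the other member.

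Enzymes of amino acid and primary metabolism went both ways. Of 8 members, 3 were above and 5 below 0 (4 and 4 after scaling by the median ratio of the members), with 1 past 1.5-fold on each side and a median of -0.04. Cytoplasmic aspartate aminotransferase (comp40487_c0_seq1), which links aspartate to the citric acid cycle, had 19.8 RPKM in A1, 12.9 RPKM in A9 and 17.6 RPKM in A3, a log2 ratio of 0.61 with an interval of 0.41 to 0.82. Aspartate kinase (comp31283_c0_seq1), the entry to lysine, threonine and methionine, had a ratio of 0.25. Arogenate dehydrogenase (comp40610_c0_seq1), which makes tyrosine, had 29.1 RPKM in A1 against 36.7 RPKM in A9, a ratio of -0.33.

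Protein folding and turnover held 10 members, 3 above and 7 below 0 (4 and 6 after scaling by the median ratio of the members), with a median of -0.08. Besides cyclophilin B, the lowest named one was heat shock 70 kDa protein 4 (comp44949_c0_seq1), a chaperone, at 82.4 RPKM in A1 against 106 RPKM in A9. Transcription elongation factor B polypeptide 1 (comp34110_c0_seq1), an adaptor of ubiquitin ligases, had a log2 ratio of -0.01. In membrane transport, 6 of 8 members were below 0 with a median of -0.16, and the MATE family transporter (comp34994_c0_seq1), an exporter of small molecules, had -0.36. The list of kinases and signalling held 4 members, 3 of them above 0, with a median of 0.30.

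Of the 5 most abundant annotated members, 2 were near equal in both lines and 3 were lower in A1. A transcript with the GO term extracellular region (comp40372_c0_seq1) had 244 RPKM in A1 against 240 RPKM in A9, a log2 ratio of 0.03. Uridine monophosphate synthetase (comp40106_c0_seq1), which completes pyrimidine synthesis, had 159 RPKM in A1 against 151 RPKM in A9, a ratio of 0.07 with an interval of 0.01 to 0.14. The other 3 were the chitinase, S17 and L15, with the ratios of -0.41, -0.33 and -0.23 given above.

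Over the 65 members with a listed length, the inferred reads of A1 and A9 together ranged from 67 to 9467, with a median of 1106. The interval of the log2 ratio lay above 0 for 10, below 0 for 24 and held 0 for 31. Its bounds lay a median of 0.17 and at most 0.74 from the middle on the log2 scale. A 2-fold difference thus exceeded the counting error for all 65 if the inferred reads are independent, which was not tested. The variation between plants and between libraries of a line was not measured.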

How the data were processed

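Messenger RNA was sequenced from stem apexes of the lines A1, A3 and A9, with 1 library per line. After removal of adaptors and reads of low quality, the authors built 1 Trinity assembly from all libraries. They deposited, per line, the RPKM of every transcript with 2 decimals. The read mapper and the treatment of reads that match several transcripts are not given in the sources used here, so values of transcripts within a component can depend on how shared reads were split. The files hold RPKM and no read numbers, so no count test was used. The small RNA libraries were not used here.

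The A1 and A9 values were joined by transcript name, and 0.1 was added to each before the log2 ratio was taken. A transcript was called changed where the log2 ratio was 1 or more, or -1 or less, and a smaller threshold of 1.5-fold was used for annotated members. Component values are RPKM sums over all transcripts of a component. Functions, GO terms, lengths and predicted sites were read from the additional files of the study, and 0 transcript names could be matched to a RefSeq gene. For members with a listed length, reads were inferred as RPKM times length over the constant of the library, rounded to whole numbers, and the exact Clopper-Pearson 95% interval of the A1 share was turned into an interval of the ratio. If a step is 0.5 of the constant, the intervals are wider than needed. The study sequenced paired ends. If a step is 1 read of a pair, the 2 reads of a pair are not independent, and the intervals are too narrow.

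Named were the 2 highest and 2 lowest function-named members of each role list with 3 or more members, members the study names in its text, the 2 highest and 2 lowest ratios of all, the 5 most abundant annotated members and annotated members at least 2-fold different. A result for 1 member covered by this rule is not reported here. The members, lists and rules were chosen with earlier results of these data known, and the word pattern of the kinase list was narrowed after the values were seen. The alternatives were 1 or 0 added, a minimum mean of 20 RPKM, 10 RPKM in each library, scaling by the median ratio or upper quartile, a log2 threshold of 2, other bins, and sums over components. Scaling by the upper quartile and component sums for role lists were added after seeing the data. The scripts were tested on simulated data. Figures were drawn with matplotlib 3.10.9, and the calculations used scipy 1.17.1, pandas 2.3.3 and numpy 2.4.6 under Python 3.11.15.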

Additional observations from a re-analysis of the deposited data

How the results depend on the processing

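No paired analysis was possible because each line had a single library, and leaving out a library was not possible for the same reason. Adding 1 or 0 and both scalings kept the counts of changed transcripts and components within 1.5 times. The scalings moved the ratios by about 0.02 on the log2 scale. A minimum mean of 20 RPKM gave 316 transcripts higher and 107 lower, and 201 components higher and 72 lower, because fewer transcripts entered. At least 10 RPKM in each library gave 265 and 124 transcripts, and 164 and 83 components. A log2 ratio of at least 2 gave 250 and 13 transcripts, and 148 and 9 components, so the higher share of the changed transcripts was 95.1% against 75.1% at the threshold of 1. Of all 156846 listed transcripts, 6951 were higher and 6319 lower at the threshold of 2. With bins on the higher value, the share higher became 1.82% for 10 to 20 RPKM, 11.2% for 100 to 500 RPKM and 7.81% for 500 RPKM or more, as this binning sorts a changed transcript by its larger value. When only members were counted for component size, the share lower was 0.967% for 6 to 10, and for 11 or more the shares were 8.73% higher and 0% lower. For component sums, the median of hormone pathways was -0.26 and that of the cell wall list -0.32, against -0.38 and -0.01 for transcripts; the cause was not tested. Among 45 named members, the sum over the component changed the sign of 4 ratios and scaling by the median ratio that of 4, all of members under 1.5-fold. Between plants of a line, no variation was measured, and a 2-fold difference between 1 library and another has no error estimate beyond counting.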
